A study of Mus musculus with 12 samples.

Results

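The MYC and MAX network was taken as 10 mouse genes chosen by symbol: Myc, Mycn, Mycl, Max, Mxd1, Mxd3, Mxd4, Mxi1, Mnt and Mga. They are 10 of the 54356 annotated genes of the series, and all 10 were among the 16043 genes left by a filter on low counts and tested. The study compared wild-type (WT) mouse primary neural stem cells with Chd5-/- cells, which carry a deletion in the gene of the chromatin remodeller CHD5, at 3 h and at 48 h of neural differentiation. It holds 12 RNA-seq libraries, 3 for each genotype and time, made from Trizol-extracted RNA with the TruSeq Stranded mRNA kit. Cells of all 4 groups had grown in medium with the factors EGF and FGF2 and were then given neurobasal medium with B-27, so the cells of 3 h too were in differentiation medium; undifferentiated cells are not analysed here. The labels do not say which part of Chd5 is missing, nor whether replicates are different animals or cultures, so p-values cover only the spread among these samples, which may be technical.

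MYC, MYCN and MYCL are transcription factors that bind DNA only as partners of MAX, at a short sequence called the E-box, and raise the expression of genes for growth, such as those of ribosome assembly. The MXD proteins (Mxd1, Mxd3, Mxd4 and Mxi1) and MNT compete for MAX and for the same sites and recruit the SIN3 and histone deacetylase corepressor, while MGA, the largest member, joins MAX to a Polycomb complex that keeps germ cell genes silent. In neural precursors Myc and Mycn are known for sustaining division, and a shift from MYC to MXD partners of MAX is a textbook feature of cells that leave the cell cycle, with Mxd3 as the MXD gene known from dividing precursors.

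The libraries held 14.1 to 18.7 M estimated reads. Chd5 itself was not lower in the Chd5-/- labelled libraries by the test: its level at 3 h was 3.54, 3.93 and 4.66 CPM in WT (counts per 1 M reads, scaled between libraries) and 5.25, 6.31 and 7.06 CPM in the others (log2 fold change 0.61 ± 0.31 SE, edgeR adjusted p = 0.257), and at 48 h at 6.59, 7.15 and 5.28 CPM against 5.70, 3.34 and 2.96 CPM (-0.66 ± 0.31, edgeR adjusted p = 0.467). The groups are therefore named by their labels throughout. Of 13 neural stem cell markers, 12 reached 1 CPM. The list summed to 9156 to 9498 CPM in the Chd5-/- labelled libraries and 6005 to 8501 CPM in WT at 3 h, without overlap, and to 5115 to 6925 CPM and 5184 to 6512 CPM at 48 h. Of 7 microglia markers, 6 stayed under 1 CPM in all libraries. A set of 3 libraries stood apart. WT replicate 1 at 3 h had a read-weighted mean transcript length of 1805 bases against 3049 and 3077 in the other 2. Replicate 2 of WT and of Chd5-/- at 48 h kept a mean level of 20 mitosis genes of 7.14 and 6.96 on the log2(CPM + 1) scale, against 3.36 to 3.40 in the other 4 libraries of 48 h and 7.19 to 7.88 in the 6 of 3 h. Results are given with all 12 libraries, and those headed "9 libraries" come from the same fit without these 3.

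Sequences are shown for the members the results turn on: Mycn, the member with the largest log2 genotype difference, Mxd1 and Mxd4, the members that passed the test over time, and Mxi1. For Mxi1, 2 of its 3 start regions are shown, those of the transcripts whose share of reads did not overlap between genotypes. Each stretch runs from 250 bases before to 50 bases after a RefSeq transcription start on GRCm38.p6 and is written 5′ to 3′ on the gene's strand. RefSeq start regions were at hand for 9 of the 10 members, 11 regions in all; that of Myc is named only. Capitals mark matches to the E-box CACGTG or to 4 E2F motifs (TTTCCCGC, TTTCGCGC, TTTGCCGC and TTTGGCGC), searched on both strands; the E-box reads the same on both. In the Mycn region the first run of capitals holds 2 overlapping matches.
Mycn, chr12:12941787-12942086, minus strand: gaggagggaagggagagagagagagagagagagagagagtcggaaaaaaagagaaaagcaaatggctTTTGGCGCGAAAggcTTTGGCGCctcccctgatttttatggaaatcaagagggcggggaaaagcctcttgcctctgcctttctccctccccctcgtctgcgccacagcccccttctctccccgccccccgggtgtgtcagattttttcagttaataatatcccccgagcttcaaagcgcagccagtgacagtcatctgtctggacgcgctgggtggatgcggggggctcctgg
Mxd1, chr6:86669110-86669409, minus strand: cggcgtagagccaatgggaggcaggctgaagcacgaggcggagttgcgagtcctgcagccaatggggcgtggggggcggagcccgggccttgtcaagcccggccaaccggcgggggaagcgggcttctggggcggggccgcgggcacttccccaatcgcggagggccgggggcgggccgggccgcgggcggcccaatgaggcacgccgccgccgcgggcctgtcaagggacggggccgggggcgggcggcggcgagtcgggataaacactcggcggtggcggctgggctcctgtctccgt
Mxd4, chr5:34187661-34187960, minus strand: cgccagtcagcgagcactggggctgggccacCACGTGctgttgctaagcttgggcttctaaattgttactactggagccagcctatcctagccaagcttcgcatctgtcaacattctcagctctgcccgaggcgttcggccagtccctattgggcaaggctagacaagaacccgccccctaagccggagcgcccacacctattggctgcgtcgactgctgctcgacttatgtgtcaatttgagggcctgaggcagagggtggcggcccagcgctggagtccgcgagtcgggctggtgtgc
Mxi1 upstream start, chr19:53310256-53310555, plus strand: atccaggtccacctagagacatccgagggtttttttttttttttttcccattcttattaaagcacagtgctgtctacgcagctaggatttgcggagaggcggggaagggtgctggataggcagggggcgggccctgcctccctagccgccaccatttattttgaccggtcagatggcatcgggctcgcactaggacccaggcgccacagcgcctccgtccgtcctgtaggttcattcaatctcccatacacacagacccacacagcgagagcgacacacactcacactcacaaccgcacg
Mxi1 downstream start, chr19:53329163-53329462, plus strand: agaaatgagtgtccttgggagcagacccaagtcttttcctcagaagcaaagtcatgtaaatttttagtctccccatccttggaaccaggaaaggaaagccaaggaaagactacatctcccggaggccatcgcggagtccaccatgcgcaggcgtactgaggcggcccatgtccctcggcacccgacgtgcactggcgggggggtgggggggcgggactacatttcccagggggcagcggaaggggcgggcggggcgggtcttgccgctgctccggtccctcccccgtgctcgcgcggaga
The Mycn region held the E2F letters TTTGGCGC at 2 places, beginning 183 and 168 bases before the start. It also held GCGCGAAA, which is TTTCGCGC on the other strand, beginning 179 bases before the start and overlapping the first. At least 1 E2F match occurred in 744 of 32851 RefSeq regions of the same length (2.26%), and 2 or more, overlapping ones counted separately, in 32 (0.1%). The E-box lay in 3 of the 11 member regions, those of Mxd4 (219 bases before the start), Mnt (123) and Max (3), against 2349 of the 32851 (7.15%). These matches describe letters and are not binding sites measured here.

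Compared per length, the order of the members changed between 3 h and 48 h. Levels between genes were compared in TPM (transcripts per 1 M, a unit that accounts for transcript length) summed over each gene's coding transcripts, since the 203-base decay transcript Max-206 took at most 3.18% of Max reads but up to 115 TPM. In WT at 3 h the medians of 3 libraries were 32.0 TPM for Myc, 26.3 for Max and 23.3 for Mxd3, neighbours whose ranges overlapped, followed by Mxi1 (10.7), Mxd4 (10.3), Mnt (4.35), Mycl (2.33), Mga (2.23), Mxd1 (1.68) and Mycn (0.659). Apart from Mxd3 and Mxi1, each neighbour in that order overlapped the next. In the Chd5-/- labelled libraries at 3 h, Max (23.1) and Mxd3 (22.4) overlapped and stood above Myc (20.7), with no overlap between Mxd3 and Myc. At 48 h the order in WT was Max (45.6), Mxd4 (38.0), Mxi1 (24.8), Myc (20.4), Mycl (10.4), Mnt (7.35), Mxd1 (6.03), Mga (3.74), Mycn (1.84) and Mxd3 (1.58), in which Myc did not overlap Mycl and Mga did not overlap Mycn. In the Chd5-/- labelled libraries at 48 h Mxd1 (10.01) followed Myc and stood above Mycl (7.30) with overlapping ranges, and Mycn (0.257) was last with no overlap with Mxd3 (1.46). Mycn was the least abundant member in 3 of the 4 groups and rested on 5 to 101 estimated reads a library, so its values are the least precise.

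**Figure D1:**
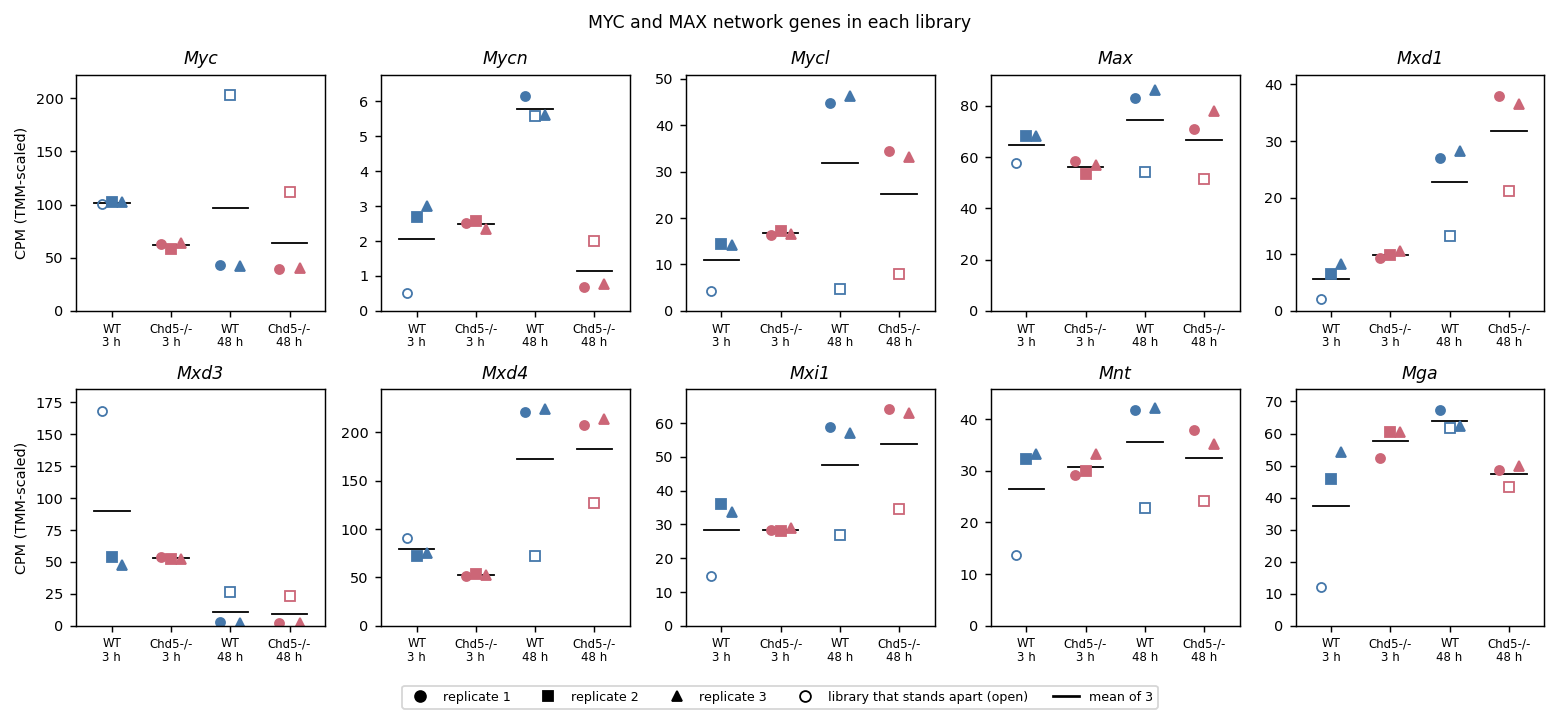
CPM of each of the 10 members in the 12 libraries, by group, on axes that start at 0; symbol shapes give the replicate number, horizontal lines the mean of 3, and open symbols the 3 libraries that stand apart. Mycn lies at 5.6 to 6.17 CPM in WT at 48 h and at 0.681 to 2.00 CPM in the Chd5-/- labelled libraries at 48 h, and Mxd3 lies at 2.08 to 3.24 CPM in the filled 48 h symbols.

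Differences between genotypes in the network were few by the test on all libraries. Of the 10 members, 0 passed at an adjusted p under 0.05 at 3 h (edgeR quasi-likelihood test; 6.71% of all genes passed, 3.24% higher and 3.48% lower), with 0 at an unadjusted p under 0.05 and 0 by DESeq2 and by limma-voom. At 48 h 0 passed as well (2.74% of all genes passed, 1.53% higher and 1.21% lower), with 1 at an unadjusted p under 0.05, and 1, Mycn, by each of DESeq2 and limma-voom. In CPM the groups did not overlap for 4 members at 3 h (45.0% of all genes) and for 2 members at 48 h (23.2% of all genes). Of these, Myc, Mxd1 and Mxd4 at 3 h and Mga at 48 h overlapped in coding TPM. With 9 libraries, 7 members passed at 3 h, 3 higher and 4 lower (52.5% of all genes in either direction), and 7 at 48 h, 2 higher and 5 lower (47.2%). With 10 members, these counts are within a few genes of the all-gene shares.

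Mycn (ENSMUSG00000037169, chr12:12936093-12941914, minus strand, GRCm38) showed the largest log2 genotype difference of the members. At 48 h its level was 6.17, 5.6 and 5.62 CPM in WT (5.80 ± 0.322, SD, n = 3) and at 0.681, 2.00 and 0.757 CPM in the Chd5-/- labelled libraries (1.15 ± 0.742). All 3 of the latter lay below all 3 of WT, and the highest of them was replicate 2, the library with high mitosis genes. The log2 fold change was -2.33 ± 0.59 (SE), which missed the threshold over all genes (edgeR adjusted p = 0.0689; range over the 22 alternatives 1.71e-07 to 0.277). It passed with DESeq2 (adjusted p = 0.001), with limma-voom (adjusted p = 0.0392), without WT replicate 1 of 3 h (edgeR adjusted p = 0.00635), without Chd5-/- replicate 2 of 48 h (-3.0, edgeR adjusted p = 0.0397) and with 9 libraries (-3.01 ± 0.22, edgeR adjusted p = 1.71e-07). A lower level without overlap at 48 h held for 10.9% of all genes.

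Over time Mycn moved in opposite directions in the 2 genotypes. In WT it stood at 0.506, 2.68 and 3.00 CPM at 3 h, below all 3 libraries of 48 h, and the log2 change was 1.46 ± 0.57 (edgeR adjusted p = 0.0829). The other genotype stood at 2.51, 2.59 and 2.33 CPM at 3 h, above all 3 of 48 h, and the change was -1.11 ± 0.58 (edgeR adjusted p = 0.194). The test of the difference, the genotype by time interaction, gave -2.57 ± 0.81 (edgeR adjusted p = 0.287 with 12 libraries, DESeq2 0.0484, edgeR 5.68e-06 with 9 libraries). With 9 libraries the change was 1.00 ± 0.17 in WT and -1.81 ± 0.23 in the others (edgeR adjusted p = 0.000151 and 7.35e-06). At 3 h the genotypes overlapped, and the log2 difference was 0.24 ± 0.56 (edgeR adjusted p = 0.821), or -0.19 ± 0.17 with 9 libraries. The change over time under the Chd5-/- label passed on leaving out WT replicate 1 of 3 h (-1.15, edgeR adjusted p = 0.0331), and that in WT passed with DESeq2 (0.0321) and limma-voom (0.0461).

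Myc (ENSMUSG00000022346, chr15:61985391-61990374, plus strand), the member with the highest median TPM in WT at 3 h, stood lower in the Chd5-/- labelled libraries at that time. It stood at 100.5, 102 and 102 CPM in WT (102 ± 1.04, SD, n = 3) and at 62.6, 57.9 and 64.3 CPM in the others (61.6 ± 3.30), with no overlap, as for 21.1% of all genes in this direction. In coding TPM the groups overlapped, at 11.8, 32.0 and 32.2 in WT and 21.0, 19.1 and 20.7 in the others. The low WT value was replicate 1, whose reads lay on shorter transcripts. The log2 difference of -0.72 ± 0.59 did not pass in the fit to all groups (edgeR adjusted p = 0.492), in which Myc ranged from 42.5 to 204 CPM within WT at 48 h. Fitted on the 6 libraries of 3 h alone, it was -0.75 (edgeR adjusted p = 0.0358), and with 9 libraries -0.73 ± 0.044 (edgeR adjusted p = 1.43e-08); no fit with 1 library left out made it pass (adjusted p 0.239 to 0.68).

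By 48 h, Myc had separated by library rather than by genotype. WT stood at 43.1, 204 and 42.5 CPM and the Chd5-/- labelled libraries at 39.1, 112 and 40.1 CPM, the high value in each being replicate 2. The genotype difference was -0.60 ± 0.59 (edgeR adjusted p = 0.9), and -0.099 ± 0.058 with 9 libraries (edgeR adjusted p = 0.187). Against 3 h, Myc gave -0.077 ± 0.59 in WT and 0.051 ± 0.59 in the Chd5-/- labelled libraries with all libraries (edgeR adjusted p = 0.937 and 0.964). With 9 libraries it fell by 1.30 ± 0.051 and by 0.67 ± 0.051 on the log2 scale (edgeR adjusted p = 5.48e-11 and 4.21e-08). In these bulk libraries fewer cells of a type and less RNA per cell cannot be told apart. The related gene Bmyc held 92 to 415 estimated reads a library, against 632 to 3019 for Myc.

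Mycl was low in the 48 h libraries in which Myc was high. It stood at 4.36, 14.3 and 14.2 CPM in WT and at 16.3, 17.1 and 16.7 CPM in the Chd5-/- labelled libraries at 3 h. At 48 h the values were 44.7, 4.79 and 46.4 CPM in WT and 34.6, 8.01 and 33.2 CPM in the others. The low library in each 48 h group was again replicate 2, and the low one at 3 h was WT replicate 1. The genotypes did not overlap at 3 h (0.60 ± 0.76, edgeR adjusted p = 0.662; 0.23 ± 0.067 and 0.0117 with 9 libraries). No contrast of Mycl passed with all libraries (log2 change over time 1.54 ± 0.77 in WT, edgeR adjusted p = 0.167, and 0.60 ± 0.76 in the others, 0.611), while the WT change passed without replicate 2 of 48 h (2.05, edgeR adjusted p = 0.0323). With 9 libraries it rose by 1.63 ± 0.064 in WT and by 0.99 ± 0.058 in the Chd5-/- labelled libraries (edgeR adjusted p = 5.46e-11 and 3.09e-09), and in the latter at 48 h it differed from WT by -0.41 ± 0.057 (edgeR adjusted p = 5.91e-05). The interaction was -0.64 ± 0.088 with 9 libraries (edgeR adjusted p = 7.44e-05) and -0.94 ± 1.07 with 12 (0.758).

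Max, the shared partner of all other members, passed the test in no contrast with all libraries. It stood at 57.8, 68.0 and 68.3 CPM in WT and at 58.5, 53.5 and 56.7 CPM in the Chd5-/- labelled libraries at 3 h, and at 82.9, 54.2 and 86.1 CPM and 71.0, 51.5 and 77.9 CPM at 48 h. The lowest value at 48 h was replicate 2 in both genotypes, and no pair of groups was free of overlap. The edgeR adjusted p ran from 0.485 to 0.983, and with 9 libraries the log2 changes over time were 0.26 ± 0.053 in WT and 0.37 ± 0.051 in the Chd5-/- labelled libraries (edgeR adjusted p = 0.000587 and 1.86e-05). In that fit the genotype difference was -0.27 ± 0.051 at 3 h and -0.17 ± 0.053 at 48 h (edgeR adjusted p = 0.000502 and 0.0193).

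Max is made in forms that differ by a short exon near its start. Max-202 holds a 27-base exon of 9 codons at chr12:76961263-76961289 (minus strand, GENCODE M21, GRCm38) that the other common form lacks, shown here because the reads of the gene divide between these forms:
Max 9-codon exon: gaagagcaaccgaggtttcaatctgcg
Max-202 took 40.7% to 54.8% of Max reads in 11 libraries and the form without the exon 33.4% to 44.6%, while in WT replicate 1 of 3 h, whose reads lay on shorter transcripts, they took 0% and 100%. Between genotypes over both times, the Max-202 share differed by 10.9 percentage points (two-sided exact permutation p = 0.095), and by 2.00 points with 9 libraries (exact permutation p = 0.433). The share of the form without the exon differed by -13.4 points (exact permutation p = 0.035, 0.128 adjusted over the 11 member transcripts compared), and by -3.22 points with 9 libraries (exact permutation p = 0.133). Max-205, which lacks a 108-base exon, took 6.97% to 14.9% in those 11 libraries.

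Among the MXD repressors, Mxd1 (ENSMUSG00000001156, chr6:86647042-86669161, minus strand) rose between 3 h and 48 h in both genotypes. It stood at 2.03, 6.55 and 8.27 CPM in WT at 3 h (5.61 ± 3.22, SD, n = 3) and at 26.9, 13.3 and 28.2 CPM at 48 h (22.8 ± 8.28). The Chd5-/- labelled libraries went from 9.28, 9.79 and 10.5 CPM (9.86 ± 0.629) to 38.0, 21.1 and 36.5 CPM (31.8 ± 9.33). All 48 h libraries lay above all 3 h libraries within each genotype, replicate 2 being the lowest of each 48 h group. The log2 change was 2.01 ± 0.47 in WT (edgeR adjusted p = 0.0158, range over alternatives 1.82e-09 to 0.114) and 1.69 ± 0.47 in the Chd5-/- labelled libraries (edgeR adjusted p = 0.0261, range 1.62e-10 to 0.0966). In WT the call was lost without replicate 1 or 3 of 48 h (edgeR adjusted p = 0.056 and 0.0578), on the groups compared alone (0.114) and with an offset for transcript length (0.0904). Under the Chd5-/- label it was lost with that offset (0.0683) and on leaving out any of their libraries other than replicate 2 of 48 h (edgeR adjusted p 0.0842 to 0.0966). With 9 libraries the changes were 1.85 ± 0.10 and 1.88 ± 0.084.

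Mxd1 also stood higher in CPM in the Chd5-/- labelled libraries than in WT at 3 h, without overlap (as 23.9% of all genes did in this direction). In coding TPM the groups overlapped, at 0.0891, 2.20 and 1.68 in WT and 1.17, 2.46 and 2.37 in the others. The log2 difference of 0.80 ± 0.46 did not pass (edgeR adjusted p = 0.32), and was 0.41 ± 0.11 with 9 libraries (edgeR adjusted p = 0.00609). At 48 h the groups overlapped, with 0.48 ± 0.45 (edgeR adjusted p = 0.884), or 0.45 ± 0.082 with 9 libraries (edgeR adjusted p = 0.00063). The interaction for Mxd1 was -0.32 ± 0.65 (edgeR adjusted p = 0.861).

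Mxd4 (ENSMUSG00000037235, chr5:34173883-34187720, minus strand), the MXD gene with the highest median TPM at 48 h, rose in the Chd5-/- labelled libraries. It stood at 51.9, 53.5 and 52.3 CPM there at 3 h (52.6 ± 0.847, SD, n = 3) and at 208, 126 and 213 CPM at 48 h (183 ± 48.7), with no overlap. The log2 change was 1.80 ± 0.39 (edgeR adjusted p = 0.00904, range over alternatives 2.14e-14 to 0.0524), and the 1 alternative in which it did not pass was the offset for transcript length. WT went from 90.5, 72.3 and 75.6 CPM to 221, 71.8 and 224 CPM, and the low replicate 2 brought the groups to overlap. That change was 1.12 ± 0.38 (edgeR adjusted p = 0.0568) and 1.49 without WT replicate 2 of 48 h (edgeR adjusted p = 0.00347). With 9 libraries the changes were 1.54 ± 0.038 in WT and 1.97 ± 0.036 in the Chd5-/- labelled libraries, and the interaction was 0.43 ± 0.053 (edgeR adjusted p = 3.22e-05, against 0.68 ± 0.53 and 0.661 with 12 libraries). At 3 h all 3 Chd5-/- labelled libraries lay below all 3 of WT in CPM, with -0.60 ± 0.38 (edgeR adjusted p = 0.367), or -0.49 ± 0.040 with 9 libraries (edgeR adjusted p = 2.73e-07). In coding TPM they overlapped, at 7.29, 7.42 and 8.13 against 3.90, 10.3 and 12.3 in WT, the low WT value being replicate 1.

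Mxd3 (ENSMUSG00000021485, chr13:55325168-55329823, minus strand) went the other way from Mxd1 and Mxd4 in level. At 3 h its level was 168, 53.9 and 47.7 CPM in WT and 54.2, 52.4 and 52.1 CPM in the Chd5-/- labelled libraries, the outlying value being WT replicate 1. At 48 h its level was 3.24, 26.8 and 2.56 CPM in WT and 2.23, 23.4 and 2.08 CPM in the others, with replicate 2 more than the rest in both. The 48 h libraries lay below the 3 h libraries in each genotype, and the log2 changes of -3.05 ± 1.12 and -2.52 ± 1.10 did not pass with all libraries (edgeR adjusted p = 0.0717 and 0.127). Without WT replicate 2 of 48 h the WT change was -4.94 (edgeR adjusted p = 0.0165), and without Chd5-/- replicate 2 of 48 h the other was -4.62 (edgeR adjusted p = 0.0167); the WT change also passed without the latter library (-3.04, 0.0332), with limma-voom (-3.65, 0.0221) and with the replicate number as a block (-3.92, 0.0322). The change under the Chd5-/- label likewise passed with limma-voom (-3.47, 0.0267) and with the block (-3.45, 0.037). With 9 libraries they were -4.18 ± 0.11 and -4.65 ± 0.11, the largest time changes of any member in that fit. The libraries with high Mxd3 at 48 h are those with high mitosis genes; the part of those in this result was not tested. Mxd3 overlaps Prelid1 on the opposite strand (1770 to 7401 estimated reads a library), and no source used here says whether the counting used strand.

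Mxi1 (ENSMUSG00000025025, chr19:53310518-53375810, plus strand), the gene also known as Mxd2, stood at 14.7, 36.2 and 33.8 CPM in WT and at 28.3, 28.0 and 28.8 CPM in the Chd5-/- labelled libraries at 3 h. It stood at 58.9, 26.8 and 57.2 CPM and at 64.2, 34.5 and 63.0 CPM at 48 h, again with replicate 2 the lowest of each. The time change did not pass in WT (0.75 ± 0.40, edgeR adjusted p = 0.189) or in the Chd5-/- labelled libraries (0.92 ± 0.40, edgeR adjusted p = 0.125), although the latter did not overlap between times and passed without WT replicate 1 of 3 h (0.89, edgeR adjusted p = 0.0425) and on its own groups alone (0.95, 0.0221). With 9 libraries the changes were 0.68 ± 0.051 and 1.13 ± 0.047 (edgeR adjusted p = 3.77e-08 and 7.36e-11). In that fit the genotype difference was -0.30 ± 0.051 at 3 h and 0.15 ± 0.047 at 48 h (edgeR adjusted p = 0.000251 and 0.0226). The interaction there was 0.44 ± 0.069 (edgeR adjusted p = 0.000217). With all libraries these genotype differences and the interaction did not pass.

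The share of Mxi1 reads assigned to the upstream-start transcript was lower in the Chd5-/- labelled libraries. The long transcript begins at the upstream start, chromosome 19 position 53310518, and has 295 codons. Mxi1-203, of 228 codons, begins 18895 bases downstream, and both start regions are printed above. The upstream-start transcript took 78.5%, 34.4% and 29.4% of Mxi1 reads in WT at 3 h and 12.1%, 18.2% and 19.4% in the Chd5-/- labelled libraries. At 48 h it took 37.4%, 35.2% and 35.7% in WT and 27.8%, 22.2% and 28.9% in the others. At both times all 3 Chd5-/- labelled libraries lay below all 3 of WT. The difference over both times was -20.3 percentage points (two-sided exact permutation within time, p = 0.005, the smallest that 400 arrangements allow; 0.0275 after Benjamini-Hochberg adjustment over the 11 member transcripts that could be compared), and -11.7 points with 9 libraries (exact permutation p = 0.0167, the smallest that 60 allow; 0.0919 adjusted). With labels exchanged only within the 6 same-numbered pairs, the p was 0.0312 (exact permutation, the smallest that 64 arrangements allow), and 0.172 adjusted over the 11. The difference thus passed the adjustment when labels were exchanged freely within a time and not within pairs or with 9 libraries. Mxi1-203 differed the other way, by 16.6 points with the same p in each test. The adjusted 0.0275 is that low because both Mxi1 transcripts had an exact permutation p of 0.005 and were counted separately. They divide the reads of the same gene and are not independent. The pass therefore does not establish a difference after adjustment.

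Groups apart at both times were found for 2 of the 11 member transcripts, both of Mxi1, and for 200 of 12513 transcripts of all genes (1.6%; lower 0.735%). In CPM, the upstream-start transcript stood at 11.5, 12.4 and 9.95 in WT and at 3.44, 5.11 and 5.6 in the Chd5-/- labelled libraries at 3 h, without overlap. At 48 h the CPM values were 22.0, 9.45 and 20.4 against 17.9, 7.66 and 18.2, which overlapped, and over both times the difference of -4.65 CPM had an exact permutation p of 0.125. With 9 libraries the CPM difference over both times was -4.83 (exact permutation p = 0.0167, the smallest that 60 arrangements allow). The 2 Mxi1 transcripts were singled out after their values were seen, they share reads of 1 gene and are not independent, and the shares rest on Salmon's division of 145 to 1036 estimated reads a library.

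**Figure D2:**
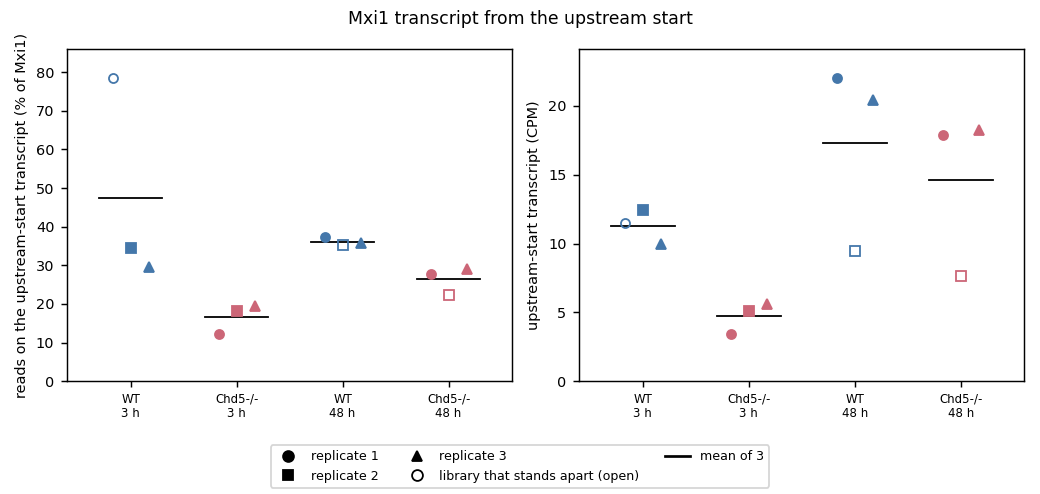
Share of Mxi1 reads on the upstream-start transcript (left, percent) and its CPM (right) in the 12 libraries, by group; symbol shapes give the replicate number, horizontal lines the mean of 3, and open symbols the 3 libraries that stand apart. The share is 12.1% to 28.9% in the Chd5-/- labelled libraries and 29.4% to 78.5% in WT, with no overlap within either time.

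Mnt, a repressor made in dividing and resting cells alike, passed the test in no contrast with all libraries. It stood at 13.8, 32.3 and 33.2 CPM in WT and at 29.2, 29.9 and 33.3 CPM in the Chd5-/- labelled libraries at 3 h, then at 41.8, 22.9 and 42.1 CPM and at 37.9, 24.2 and 35.2 CPM at 48 h. Every pair of groups overlapped (edgeR adjusted p 0.403 to 1.0). With 9 libraries the log2 change over time was 0.31 ± 0.067 in WT and 0.21 ± 0.064 in the others (edgeR adjusted p = 0.000932 and 0.00858). In that fit the genotype difference was -0.085 ± 0.064 at 3 h and -0.19 ± 0.067 at 48 h (edgeR adjusted p = 0.289 and 0.0363).

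Mga followed the same split as Mycn. In WT it stood at 12.1, 46.0 and 54.1 CPM at 3 h and at 67.5, 61.6 and 62.5 CPM at 48 h, all above 3 h. Under the Chd5-/- label it stood at 52.3, 60.4 and 60.4 CPM at 3 h and at 48.7, 43.4 and 49.9 CPM at 48 h, all below 3 h. In coding TPM the Chd5-/- labelled libraries overlapped between times, at 2.545 to 2.93 for 3 h and 2.43 to 2.95 for 48 h. The log2 changes were 0.77 ± 0.41 in WT (edgeR adjusted p = 0.193) and -0.29 ± 0.41 in the others (edgeR adjusted p = 0.657), and the interaction of -1.06 ± 0.58 did not pass (edgeR adjusted p = 0.557). With 9 libraries the interaction was -0.59 ± 0.11 (edgeR adjusted p = 0.00111), and the changes were 0.33 ± 0.083 in WT and -0.26 ± 0.078 in the others (0.00291 and 0.00808). The genotype difference at 3 h was 0.62 ± 0.41 (edgeR adjusted p = 0.385), or 0.20 ± 0.077 with 9 libraries (0.0394). At 48 h Mga was below WT in CPM in all Chd5-/- labelled libraries (-0.43 ± 0.41, edgeR adjusted p = 0.884; -0.38 ± 0.084 and 0.00216 with 9 libraries). Leaving out WT replicate 1 of 3 h alone brought both that difference and the change over time under the Chd5-/- label past the threshold (-0.43 and -0.32, edgeR adjusted p = 0.0418 and 0.0381). CPM levels above 3 h at 48 h in WT and below 3 h in the Chd5-/- labelled libraries, both without overlap, held for 2 of the 10 members, Mycn and Mga, and for 147 of 16043 genes (0.916%).

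Counted over the network, 1 of the 10 members rose with time in WT (Mxd1) and 0 fell by the edgeR test (22.9% of all genes passed, 12.7% higher and 10.1% lower). Among Chd5-/- labelled libraries 2 rose (Mxd1 and Mxd4) and 0 fell (22.1% passed, 14.1% higher and 8.03% lower). Limma-voom called 1 member lower in each genotype, Mxd3, and DESeq2 called 0 lower. Mxd3 had values in 20 alternatives for each of these time contrasts, against 21 for each other member. DESeq2 may therefore have given Mxd3 no adjusted p, and its 0 is not read as a negative test of Mxd3. By edgeR Mxd3 was the 1 lower member with an unadjusted p under 0.05 in each genotype. In CPM the groups did not overlap for 4 members in WT (37.7% of all genes, 20.9% higher and 16.8% lower) and for 6 in the Chd5-/- labelled libraries (64.6% of all genes, 32.2% higher and 32.4% lower). With 9 libraries all 10 passed in each, 8 higher and 2 lower in WT (76.0% of all genes passed, 37.6% higher and 38.4% lower) and 6 higher and 4 lower in the others (79.0%, 38.9% and 40.1%). For the interaction 0 members passed (0.231% of all genes did, 0.137% higher and 0.0935% lower; 1 at an unadjusted p under 0.05, 1 with DESeq2 and 0 with limma-voom), and 6 did with 9 libraries, 3 in each direction (40.4%, 19.3% and 21.1%). The contrasts share libraries, so their values are set side by side and not compared further.

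**Figure D3:**
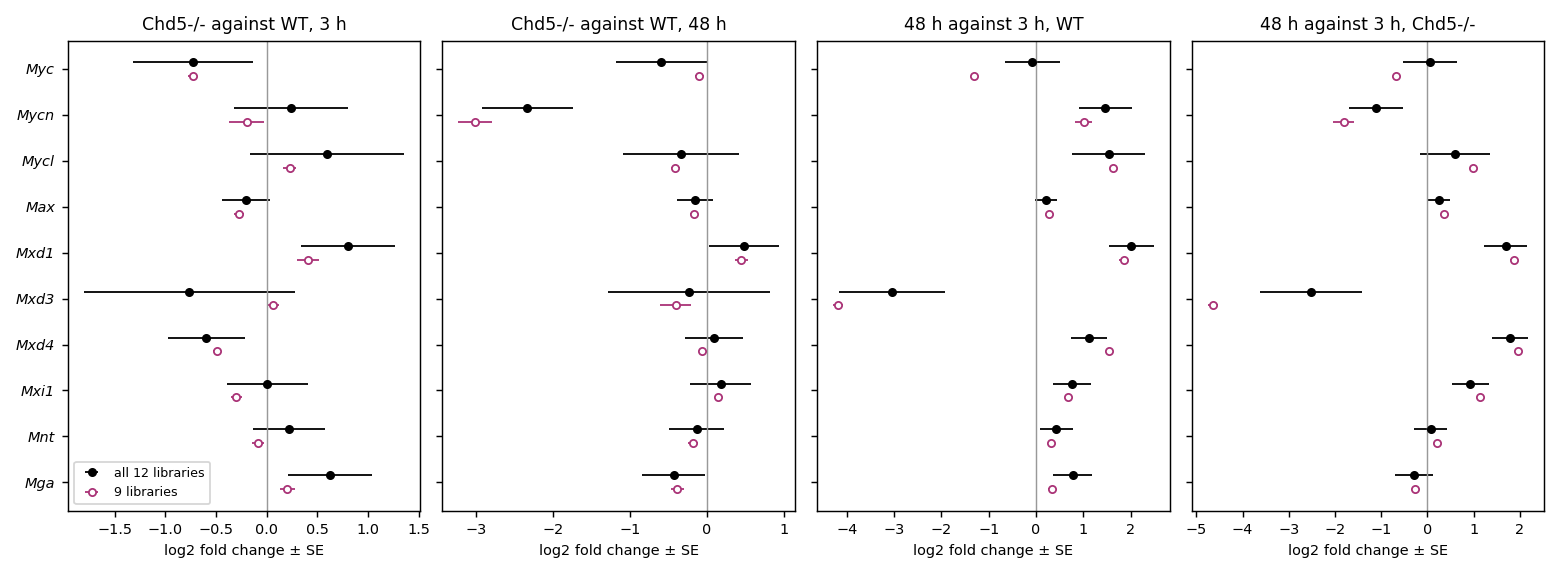
Log2 fold change ± SE of the 10 members in the 4 contrasts, with all 12 libraries (filled) and with the 9 that remain without the 3 that stand apart (open); the axis differs between panels. Mycn at 48 h (-2.33 and -3.01) and Mxd3 over time (-3.05 and -4.18 in WT) lie farthest from 0.

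Levels summed per length give the balance between the families in each library. Myc, Mycn and Mycl together stood at 12.2, 35.0 and 35.4 coding TPM in WT and at 24.1, 22.9 and 24.3 in the Chd5-/- labelled libraries at 3 h, and at 32.8, 82.3 and 31.7 and at 24.7, 48.3 and 24.6 at 48 h. Mxd1, Mxd3, Mxd4 and Mxi1 together stood at 33.0, 47.2 and 44.2 and at 40.1, 40.2 and 42.3 coding TPM at 3 h, and at 70.8, 34.4 and 71.5 and at 75.2, 51.0 and 76.5 at 48 h. Outside the 3 libraries apart, the ratio of MXD to MYC family TPM was 1.25 to 1.35 in WT and 1.67 to 1.76 in the Chd5-/- labelled libraries at 3 h, and 2.16 to 2.26 and 3.05 to 3.12 at 48 h. In the 3 libraries apart it was 2.71 (WT replicate 1 of 3 h), 0.418 (WT replicate 2 of 48 h) and 1.06 (Chd5-/- replicate 2 of 48 h), so that over all libraries the genotypes overlapped at both times. These sums describe the libraries and were not tested.

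The make-up of each family differed between libraries as well. Mycl made up 6.66% to 13.8% of MYC family TPM at 3 h (2.29% in WT replicate 1) and 29.7% to 33.1% at 48 h, but 1.03% and 3.22% in replicate 2 of 48 h. Mxd3 made up 44.1% to 56.7% of MXD family TPM at 3 h (84.0% in WT replicate 1) and 1.79% to 2.23% at 48 h, but 31.0% and 21.7% in replicate 2. Mxd4 went from 18.2% to 27.9% at 3 h (11.8% in WT replicate 1) to 48.7% to 54.2% at 48 h, with 32.3% and 43.0% in replicate 2. Mxi1 went from 21.0% to 24.3% (3.89% in WT replicate 1) to 34.8% to 36.1%, with 27.9% and 25.3% in replicate 2.

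**Figure D4:**
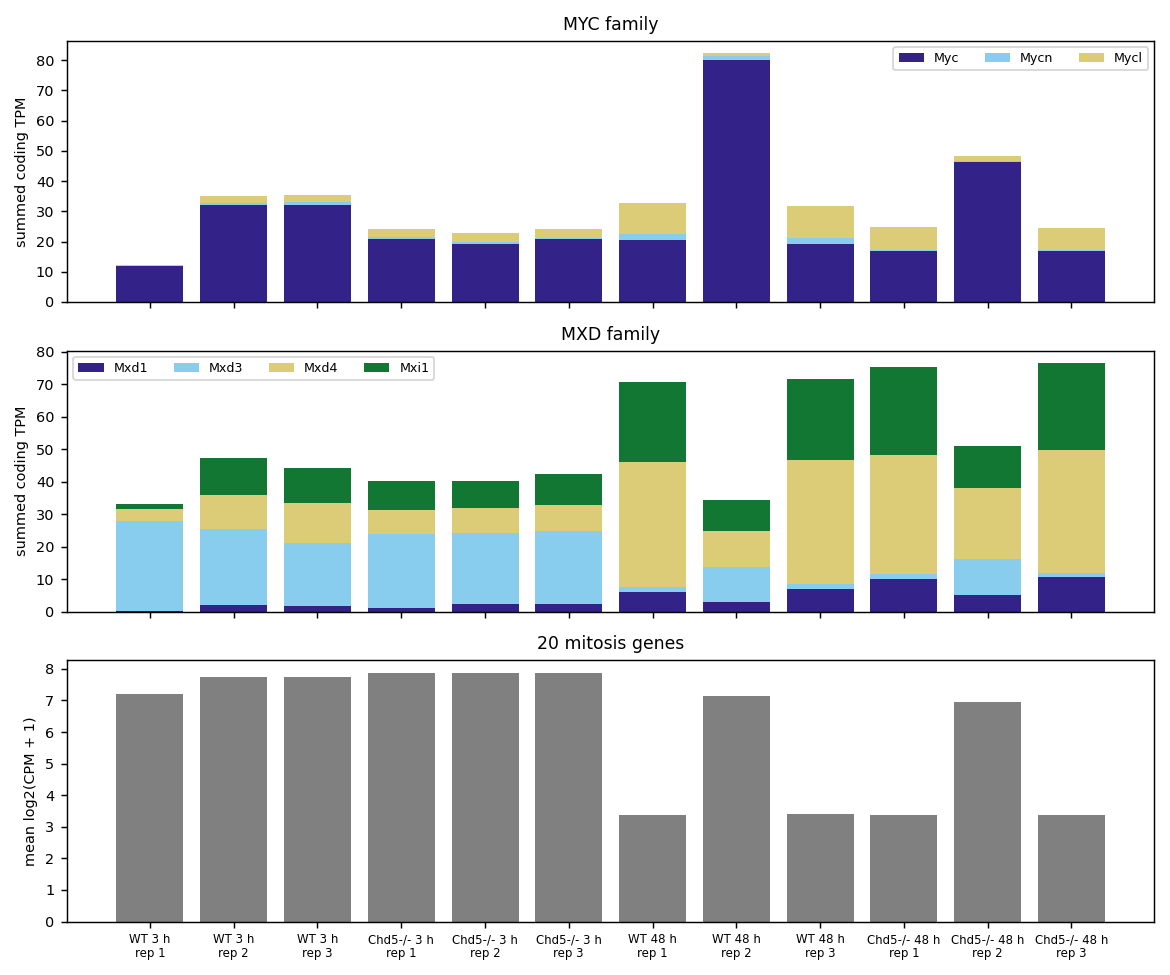
Summed coding TPM of the MYC family (top) and of the MXD family (middle), stacked by gene, and the mean log2(CPM + 1) of 20 mitosis genes (bottom) in each of the 12 libraries. Replicate 2 of both genotypes at 48 h has the MYC family at 82.3 and 48.3 TPM, Mxd3 visible in the MXD stack, and mitosis genes at 7.14 and 6.96.

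Other values that moved with these groups are given without a test of their part in the results. At 3 h the summed level of 9 mesenchymal markers was 573 to 606 CPM in the Chd5-/- labelled libraries and 13.06 to 15.03 CPM in WT. By the edgeR test 2 of the 9 were higher (Acta2, a smooth muscle actin, 579 ± 16.6 against 4.36 ± 2.14 CPM, and Tagln) and 2 lower (Col1a1 and Col3a1, calls that held in 2 and 9 of 12 fits with 1 library left out), while Col1a2, Dcn, Lum, Pdgfrb and Rgs5 stayed under 1 CPM in all libraries. The 8 neuron markers summed to 1216 to 1324 CPM there against 271 to 662 CPM in WT, a sum made up mostly of Map2 (1162 ± 60.4 against 360 ± 213 CPM, edgeR adjusted p = 0.0519). Other neuron markers stood the other way, such as Tubb3 (93.8 against 142 CPM, edgeR adjusted p = 0.674). Of the 5 neuron markers tested 0 passed by edgeR, and 1 had an unadjusted p under 0.05. The 8 astrocyte markers summed to 621 to 653 CPM against 1314 to 1630 CPM, with 3 lower by the edgeR test, among them Sparcl1 (9.44 ± 1.12 against 910 ± 399 CPM), and 1 higher, the glutamate transporter gene Slc1a2 (38.1 ± 2.76 against 12.4 ± 5.15 CPM, adjusted p = 0.0309). The Slc1a2 call held in 7 of 12 fits with 1 library left out (edgeR adjusted p up to 0.114). With 9 libraries all 8 neuron markers were tested, and 1 was higher and 3 lower. Of the 8 astrocyte markers 3 were higher and 4 lower. In that fit 27.2% of all genes were higher and 25.3% lower. The 6 endothelial markers summed to 0.740 to 1.01 CPM against 3.04 to 7.004 CPM, and the 9 oligodendrocyte lineage markers to 880 to 968 CPM against 649 to 935 CPM. By the edgeR test 1 endothelial marker was lower, and 1 oligodendrocyte lineage marker was higher and 1 lower. At 48 h the mesenchymal sums in the Chd5-/- labelled libraries and in WT were 7.32 to 16.5 CPM and 7.78 to 9.89 CPM. The neuron sums were 726 to 1226 CPM and 548 to 842 CPM, the astrocyte sums 2060 to 5349 CPM and 3843 to 4781 CPM, and the oligodendrocyte lineage sums 1276 to 2126 CPM and 1425 to 2134 CPM. All of these overlapped, and 1 astrocyte marker, Aqp4, was lower (5.25 ± 0.384 against 72.6 ± 40.4 CPM, edgeR adjusted p = 0.0098). That call held in 10 of 12 fits with 1 library left out (edgeR adjusted p up to 0.0561). The 8 astrocyte markers had a median log2 genotype difference of 0.49 at 48 h. With 9 libraries 6 of them were higher and 2 lower, against 25.6% and 21.6% of all genes. The endothelial sums were 1.47 to 2.59 CPM against 8.12 to 9.28 CPM in WT, without overlap, and Tek was lower (0.363 ± 0.152 against 6.98 ± 0.547 CPM, edgeR adjusted p = 0.00618). Of the oligodendrocyte lineage markers 2 were higher at 48 h, Gpr17 (34.5 ± 0.329 against 0.752 ± 0.219 CPM, edgeR adjusted p = 7.24e-05) and Pdgfra (42.0 ± 18.0 against 7.11 ± 1.91 CPM, 0.0301). With 1 library left out, the Gpr17 call held in 12 of 12 fits and the Pdgfra call in 4 (edgeR adjusted p up to 0.117). The part of these cell type differences in the results for Myc, Mxd1 and Mxd4 at 3 h or for Mycn at 48 h was not tested.

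Partners outside the 10 members were read from lists chosen with earlier results known. MLX is a MAX-like protein whose partners MondoA (Mlxip) and ChREBP (Mlxipl) respond to glucose. In WT 2 of these 3 genes rose with time, Mlxip from 24.5 ± 9.56 to 52.1 ± 2.22 CPM (1.09 ± 0.28, edgeR adjusted p = 0.0211) and Mlxipl from 0.414 ± 0.166 to 2.19 ± 1.20 CPM (2.41 ± 0.61, 0.0206; all SD, n = 3). Among Chd5-/- labelled libraries 1 of 3 rose, Mlxipl, from 0.115 ± 0.0539 to 1.46 ± 0.708 CPM (3.56 ± 0.69, edgeR adjusted p = 0.0054). The last call held in all 12 fits with 1 library left out, while in WT Mlxip was lost without replicate 1 or 3 of 48 h (largest edgeR adjusted p 0.0705) and Mlxipl also without replicate 3 of 3 h (0.0741). With 9 libraries Mlxip changed by 0.79 ± 0.075 in WT, and Mlxipl by 2.91 ± 0.41 in WT and 3.82 ± 0.47 under the Chd5-/- label. Of all genes, 12.7% were called higher with time in WT and 14.1% under the Chd5-/- label with all 12 libraries.

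Of 10 corepressor genes that MXD proteins and MNT work with, 3 fell with time in each genotype by the edgeR test and 0 rose, against 10.1% of all genes lower in WT and 8.03% under the Chd5-/- label. Hdac1, a histone deacetylase, went from 215 ± 2.04 to 129 ± 26.3 CPM in WT (-0.74 ± 0.21, edgeR adjusted p = 0.0336) and from 226 ± 2.11 to 134 ± 26.6 CPM in the Chd5-/- labelled libraries (-0.76 ± 0.21, 0.0289). Rbbp7, a histone-binding subunit, fell by 1.32 ± 0.28 and by 1.47 ± 0.29 on the log2 scale (edgeR adjusted p = 0.0109 and 0.00545). With 1 library left out, Hdac1 passed in 3 of 12 fits in WT and in 7 of 12 under the Chd5-/- label (edgeR adjusted p up to 0.13 and 0.131), and Rbbp7 in 10 of 12, lost without WT replicate 1 or 3 of 48 h (up to 0.0529), and in 12 of 12. The other called gene was Sap18 in WT and Rbbp4 in the Chd5-/- labelled libraries, and without WT replicate 1 or 3 of 48 h 0 of the 10 passed in WT. The list's median log2 change was -0.49 and -0.23, against 0.0905 and 0.0401 over all genes tested. With 9 libraries 2 of the 10 rose and 8 fell in WT, and 2 rose and 7 fell under the Chd5-/- label (37.6% of all genes higher and 38.4% lower in WT, 38.9% and 40.1% in the others). In that fit Hdac1 fell by 0.97 ± 0.041 and by 0.97 ± 0.038, and Rbbp7 by 1.78 ± 0.043 and by 1.65 ± 0.041. Sin3b, a scaffold of the same complex, rose by 0.98 ± 0.039 and by 1.40 ± 0.034 (edgeR adjusted p = 5.81e-11 and 3e-13).

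Of 9 genes of the Polycomb complex that holds MGA, 1 fell with time in each genotype by the edgeR test and 0 rose. Of all genes 10.1% and 8.03% were lower. The 1 gene was Cbx3, a chromatin reader, which fell by 1.28 ± 0.17 in WT and by 1.18 ± 0.17 in the Chd5-/- labelled libraries (edgeR adjusted p = 0.00223 and 0.00147). Its call held in all 12 fits with 1 library left out for each (by 1.39 ± 0.038 and 1.25 ± 0.036 with 9 libraries). With 9 libraries 1 of the 9 genes of the complex rose and 7 fell in WT, and 1 rose and 8 fell under the Chd5-/- label. In that fit 37.6% of all genes were higher and 38.4% lower in WT, and 38.9% and 40.1% in the others. Of 12 germ cell genes known as targets of that complex, 4 were expressed enough to be tested. In WT DESeq2 and limma-voom each called 2 lower and 1 higher. By the edgeR test 2 fell and 0 rose, against 10.1% of all genes lower (Tdrkh by 0.65 ± 0.17, adjusted p = 0.0236, and Smc1b from 0.322 ± 0.0717 to 0.0225 ± 0.0389 CPM, 0.0219). In the Chd5-/- labelled libraries Smc1b fell (1.155 ± 0.217 to 0.021 ± 0.0364 CPM, edgeR adjusted p = 0.00192) and Ddx4, a germ cell helicase, rose from 0.269 ± 0.107 to 2.62 ± 0.734 CPM (3.24 ± 0.86, edgeR adjusted p = 0.0223). In WT Ddx4 stood at 0.749 ± 0.656 CPM at 3 h and 3.78 ± 1.87 CPM at 48 h, without overlap (2.26 ± 0.79, edgeR adjusted p = 0.0614, and 2.06 ± 0.25, 5.14e-06, with 9 libraries). With 1 library left out, the WT calls held in 8 of 12 fits for Tdrkh (edgeR adjusted p up to 0.0967) and in 10 of 12 for Smc1b (up to 0.0863). Both were lost without replicate 1 or 3 of 48 h, and Tdrkh also without replicate 2 or 3 of 3 h. The call of Smc1b under the Chd5-/- label held in 12 of 12 such fits, and that of Ddx4 in 7, lost without any library of its groups but replicate 2 of 48 h (edgeR adjusted p up to 0.0936). None of the 4 passed between genotypes at 3 h or at 48 h by the edgeR test (1 and 1 at an unadjusted p under 0.05, 0 and 0 with DESeq2 and with limma-voom).

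Among genes that govern MYC protein turnover, Fbxw7, the ubiquitin ligase subunit that targets MYC, fell from 40.5 ± 2.01 to 22.9 ± 0.587 CPM in the Chd5-/- labelled libraries (-0.82 ± 0.19, edgeR adjusted p = 0.0123), a call lost without replicate 2 or 3 of 3 h or replicate 1 or 3 of 48 h (up to 0.0564), and -0.88 ± 0.062 with 9 libraries. Of 13 coactivator genes, 1 fell in WT, against 10.1% of all genes: the helicase gene Ruvbl1 (-1.28 ± 0.36, edgeR adjusted p = 0.0294). That call was lost without WT replicate 1 or 3 of 48 h (up to 0.107), and with 9 libraries the change was -1.15 ± 0.052. By edgeR 0 of the 13 fell in the Chd5-/- labelled libraries (2 at an unadjusted p under 0.05, and 0 with DESeq2 and with limma-voom), against 8.03% of all genes. With 9 libraries 4 of the 13 rose and 9 fell in WT, and 3 rose and 7 fell under the Chd5-/- label. Of all genes 38.4% and 40.1% were lower in that fit.

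Of 32 well known MYC target genes, 31 were tested; 14 fell and 0 rose in WT, and 10 fell and 0 rose in the Chd5-/- labelled libraries by the edgeR test, against 10.1% and 8.03% of all genes lower. Without WT replicate 1 or 3 of 48 h 8 of the 14 WT calls were lost and 6 genes were lower. Over all 12 fits with 1 library left out, 6 to 21 were lower in WT and 6 to 17 under the Chd5-/- label. The list's median log2 change was -0.94 and -0.87, against 0.0905 and 0.0401 over all genes tested. Ncl, which codes for nucleolin of the nucleolus, went from 1430 ± 302 to 401 ± 69.8 CPM in WT (-1.84 ± 0.24, edgeR adjusted p = 0.00187) and from 1686 ± 14.96 to 471 ± 41.4 CPM in the others (-1.84 ± 0.24, 0.00086). Odc1, the first enzyme of polyamine synthesis, fell by 1.24 ± 0.20 and by 1.11 ± 0.20 (edgeR adjusted p = 0.00408 and 0.00411). Nop58, of the small nucleolar particles, fell by 1.78 ± 0.31 and by 2.29 ± 0.31 (edgeR adjusted p = 0.00514 and 0.00115). The calls of these 3 genes held in both genotypes in all 12 fits with 1 library left out. The list's mean log2(CPM + 1) was 7.45 in WT replicate 2 of 48 h and 7.11 in Chd5-/- replicate 2 of 48 h. It was 6.25 to 6.40 in the other 48 h libraries. With 9 libraries all 31 fell in each genotype, with a median of -1.45 in WT and -1.18 in the Chd5-/- labelled libraries. The fit with 9 libraries leaves out those high libraries, so this count partly follows from that choice. Of all genes 38.4% and 40.1% were lower in that fit.

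Between genotypes, 1 of the 31 targets passed at 3 h: Rrs1, a ribosome assembly factor, higher at 176 ± 4.90 against 95.0 ± 14.2 CPM (0.89 ± 0.24, edgeR adjusted p = 0.049). This call held in 2 of 12 fits with 1 library left out, those without replicate 2 of 48 h in either genotype (edgeR adjusted p up to 0.159 in the others), and with 9 libraries the difference was 0.77 ± 0.042. At 48 h 0 passed (0 at an unadjusted p under 0.05, 0 with DESeq2 and with limma-voom). With 9 libraries 9 were higher and 12 lower at 3 h, and 19 higher and 6 lower at 48 h, against 27.2% and 25.3% of all genes at 3 h and 25.6% and 21.6% at 48 h.

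Cell cycle genes, which share libraries with high Myc and Mxd3, are given for comparison. Of 20 mitosis genes, 0 passed over time in either genotype by the edgeR test (2 and 4 at an unadjusted p under 0.05). Limma-voom called 7 and 13 lower and DESeq2 0 and 0. Whether DESeq2 gave each of these genes an adjusted p was not checked. The median log2 change of the 20 was -1.90 in WT and -2.38 in the Chd5-/- labelled libraries. With 9 libraries all 20 fell in each, with medians of -4.54 and -4.73, against 38.4% and 40.1% of all genes lower. That fit leaves out replicate 2 of 48 h in both genotypes, libraries that stood apart by their level of these same 20 genes. It therefore cannot decide whether the list fell. Of 20 replication genes 4 fell in each genotype by the edgeR test (10.1% and 8.03% of all genes were lower), 8 and 6 with DESeq2, 12 and 10 with limma-voom, and all 20 in each with 9 libraries (38.4% and 40.1% of all genes). Their mean log2(CPM + 1) was 6.68 in WT replicate 2 of 48 h and 6.55 in Chd5-/- replicate 2 of 48 h. It was 3.91 to 4.03 in the other 48 h libraries, so the count with 9 libraries partly follows from which were left out. Among the replication genes Pcna, the sliding clamp of DNA polymerase, fell by 2.02 ± 0.61 and by 2.28 ± 0.61 (edgeR adjusted p = 0.0374 and 0.0232), calls that held in 5 and 7 of 12 fits with 1 library left out. In those fits 0 to 20 of the list were lower in WT, 0 without replicate 1 or 3 of 48 h and 20 without replicate 2 of 48 h. Under the Chd5-/- label 0 to 18 were lower, 18 without replicate 2 of 48 h and 0 on leaving out any other library of its groups.

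Genes with the pattern most like a member's were named by Pearson's r of log2(CPM + 1) over the 12 libraries, which fall into the same few kinds of library, so r is a description. For Mxd1 they were Kdm5b, Slc22a5 and Pcmtd2 (r 0.99 each), and for Mxd4 Rftn2, C4b and Adam11 (0.99 each). Mxd3 was most like Ska1, Tcp1 and Chaf1b (r 1.00, 0.99 and 0.99), and Mxi1 most like Wdr19, Vps33a and Zcchc18 (0.99 each). Mycn was most like Gse1, Plekhh2 and Adm (r 0.98, 0.97 and 0.95). Among the members, Mxd1 and Mxi1 had r 0.91 with each other and -0.94 each with Mxd3.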

How the data were processed

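Each library had 1 deposited table of transcripts made by the authors with Salmon, per the submitters' processing notes; the sources used here give no version, settings, strand use or index. It holds estimated counts (NumReads), TPM and transcript lengths, per the file headers. Values of TPM were used as deposited. Of 140658 transcripts, 140137 matched GENCODE M21 (GRCm38); the 521 others held 0.135% to 0.181% of reads and were left out. Estimated counts were summed per gene and rounded. Genes passing filterByExpr (minimum count 10) were fitted in edgeR 4.0.16 (R 4.3.3): TMM scaling, 1 mean per group over 12 libraries, two-sided quasi-likelihood F tests, Benjamini-Hochberg over 16043 genes, called at adjusted p under 0.05. The SE is the absolute log2 fold change over the square root of F. All 10 members passed the filter. Alternatives used DESeq2 1.42.0, limma-voom (limma 3.58.1), other scalings and filters, a length offset, replicate blocks and omitted libraries. A member's TPM is summed over its coding transcripts, a choice made after the values of Max-206 were seen. Transcript shares took genes with at least 100 reads in every library and shares of 10% to 90%. The code was tested on simulated data.

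Members and lists were chosen with earlier results of these data known, as were the 3 libraries that stand apart. All members, Chd5, up to 4 genes of smallest p per list and contrast, and the 3 genes of most similar pattern for 5 members could be named. Same-numbered libraries of the 2 genotypes deviated together within a time (r 0.125 to 0.261 at 3 h, 0.703 to 0.788 at 48 h) and not across times. Some pairs of different number correlated as strongly (WT replicate 1 and Chd5-/- replicate 3 of 48 h 0.717, WT replicate 3 and Chd5-/- replicate 2 of 3 h 0.136). The correlations therefore do not establish which libraries are pairs. The numbers were nevertheless taken as pairs for the genotype contrasts from these correlations, not from the labels. The exchange of labels within pairs and the block within each time therefore rest on an assumed pairing. A result of the MYC turnover list is not reported here.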

Additional observations from a re-analysis of the deposited data

Results flagged for a closer look

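Mycn differed in direction over time between the genotypes: all 3 WT libraries of 48 h lay above all 3 of 3 h, and all 3 Chd5-/- labelled libraries of 48 h lay below all 3 of 3 h. The interaction was -2.57 on the log2 scale (edgeR adjusted p = 0.287). Mga showed the same opposite split in CPM, with an interaction of -1.06 (edgeR adjusted p = 0.557). In coding TPM the Chd5-/- labelled libraries overlapped between times for Mga. Neither interaction passed with all 12 libraries, and 147 of 16043 genes (0.916%) had the same split.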

How the results depend on the processing

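Counts of members that passed moved most on leaving out the 3 libraries that stand apart, to 7 at 3 h, 7 at 48 h, 10 in WT over time, 10 in the Chd5-/- labelled libraries over time and 6 for the interaction. At 3 h the groups compared alone gave 1. At 48 h DESeq2 and limma-voom each gave 1, and single omitted libraries 0 to 2. In WT over time DESeq2 and limma-voom gave 3 each, the replicate block 2, the length offset and the groups compared alone 0 each, and omitted libraries 0 to 4. In the Chd5-/- labelled libraries over time the length offset gave 0 and omitted libraries 1 to 5. For the interaction DESeq2 gave 1. Of 1070 member values under alternatives, each counted once, 949 kept direction and side of the threshold. Another 58 kept direction and came to pass, 11 kept direction and no longer passed, and 52 changed sign. Some of the 52 also came to pass, such as Mxi1 at 3 h with 9 libraries (edgeR adjusted p = 0.000251). Mxd3 had values in fewer alternatives than the other members, so some of the 1070 may lack an adjusted p.

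Same-numbered libraries deviated together within a time, but some pairs of different number did so as strongly, and the labels do not say that numbers pair them. With the replicate block within each time, chosen after seeing the data, 0 members passed in either genotype contrast or the interaction, and Mycn at 48 h gave -2.47 (edgeR adjusted p = 0.0833); the block changed no call of a member between genotypes. The Mxi1 share with labels exchanged within pairs kept its -20.3 points (exact permutation p = 0.0312). Over all genes the main counts of 1077 (3 h), 440 (48 h), 3668 (WT time), 3544 (Chd5-/- time) and 37 (interaction) became 8659, 7791, 12539, 13029 and 6669 with 9 libraries. DESeq2 gave 2091, 920 and 385 for 3 h, 48 h and the interaction, the length offset 266 at 48 h, the block 18 for the interaction, and the groups compared alone 263 at 48 h, 0 in WT time and 7836 in Chd5-/- time. Omitted libraries gave 419 to 1636, 184 to 1454, 1464 to 5419, 1708 to 7280 and 15 to 310.

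Signs changed, with 9 libraries, for Mycn (-0.19), Mxd3 (0.0597), Mxi1 (-0.30) and Mnt (-0.0853) at 3 h, Mxd4 at 48 h (-0.0639), Myc over time in the Chd5-/- labelled libraries (-0.67), and Mxd1 (0.0329) and Mxd3 (-0.46) for the interaction. Mxi1 at 3 h gave -0.0306 with RLE scaling, -0.0314 with DESeq2, -0.0051 with the stricter filter, -0.0117 on the groups compared alone and -0.0028 with the replicate block. The length offset gave -0.0324 for Mxd4 at 48 h, -0.33 for Mnt over time in the Chd5-/- labelled libraries, and -0.18 for Max and 0.20 for Mxd1 for the interaction, where Max without a filter gave -0.0113. Myc over time in the Chd5-/- labelled libraries gave -0.14 with limma-voom and -0.21 with the block. The cause was not tested for any of these.

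With single libraries omitted, values that changed sign ran, at 3 h, from -0.19 to 0.60 for Mycn, -1.06 to 0.0598 for Mxd3, -0.30 to 0.23 for Mxi1 and -0.0849 to 0.42 for Mnt. At 48 h they ran from -1.29 to 0.58 for Myc, -0.85 to 0.0832 for Mycl, -2.33 to 1.67 for Mxd3, -0.28 to 0.32 for Mxd4, -0.11 to 0.41 for Mxi1 and -0.37 to 0.0357 for Mnt. Over time they ran from -1.24 to 0.28 for Myc in WT, and from -0.65 to 0.30 for Myc and -0.0566 to 0.23 for Mnt in the Chd5-/- labelled libraries. For the interaction they ran from -0.57 to 1.29 for Myc, -0.14 to 0.19 for Max, -0.71 to 0.0731 for Mxd1, -1.59 to 2.42 for Mxd3 and -0.12 to 0.48 for Mxi1. Depth limits Mycn most, at 5 to 101 estimated reads a library.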
